A study of Mus musculus with 7 samples.

Results

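The 7 genes encoding the mouse NMDA receptor subunits, Grin1, Grin2a, Grin2b, Grin2c, Grin2d, Grin3a and Grin3b, were followed by bulk RNA-Seq in tumor-bearing brain. They were taken by symbol from a table of 19257 genes, and all 7 were among the 14782 genes whose mean normalized count reached 10, the minimum for testing. There were 7 libraries, 3 from 3xCR tumors (numbered 2, 3 and 4 by the labels) and 4 from GPC6 tumors (numbered 1 to 4). Both groups carried CRISPR-Cas9 guides against tumor suppressor genes that included Trp53 and Nf1. These were electroporated in utero into progenitors lining the lateral ventricles. A piggyBac transposon labelled electroporated cells with GFP in the model, and in the GPC6 group it also overexpressed GPC6, a glypican anchored at the cell surface. The model was bred on CD-1 and C57BL/6 backgrounds, with animals of both sexes, and tissue was taken at endpoint under a fluorescence microscope. The labels give each library only as brain, neural, and control or GPC6, so the strain, sex and age behind a single library are not known here. The comparison asked how the GPC6 tumors differed from the 3xCR tumors in the parts from which NMDA receptors are built.

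NMDA receptors are tetrameric glutamate-gated channels that pass calcium, and they open when glutamate and a co-agonist, glycine or D-serine, are bound while depolarization relieves the magnesium block. Grin1 encodes the obligatory co-agonist-binding subunit GluN1, and the Grin2 genes encode the glutamate-binding GluN2 subunits that set channel kinetics. Grin2b is known for its high expression in the developing forebrain and Grin2a for its postnatal increase, while the Grin3 genes encode glycine-binding subunits that lower calcium permeability and magnesium block. In the brain these genes are known mainly from neurons, with Grin2c also known from astrocytes and Grin3a from oligodendrocyte precursors.

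The table holds read counts that the authors divided by a size factor per library, called normalized counts here. The libraries held 7197692 to 18879762 reads on genes, and a gene with no read in a library could be present at up to 1.64 to 4.64 normalized counts there (3 reads, counting error only). Gpc6 itself was at 217, 226 and 126 normalized counts in the 3xCR libraries 2, 3 and 4, while GPC6 replicates 1 to 4 held 675, 263, 3434 and 5084. The groups did not overlap, but GPC6 replicate 2 lay close to the highest 3xCR library. The reads of the introduced transgene and of the endogenous gene were not separated, and the species of the transgene, and with it whether its reads count towards mouse Gpc6, is not given in the sources used here. GPC6 replicate 1 stood apart in another way, with the highest neuronal and the lowest proliferation marker scores, so values without replicates 1 and 2 are given where they matter.

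Grin1 was the only subunit whose groups did not overlap. It was at 151, 90.2 and 11.0 normalized counts in the 3xCR libraries 2, 3 and 4, and GPC6 replicates 1 to 4 held 3110, 261, 1026 and 174. Each GPC6 library was above each 3xCR library, although GPC6 replicate 4 exceeded 3xCR replicate 2 by little. The value in 3xCR replicate 4 came from 8 reads. The means were 84.0 ± 70.0 (SD, n = 3) and 1143 ± 1366 (SD, n = 4), and the difference on the log2(normalized count + 1) scale was 3.49 (SE 1.18). In the limma fit over all 14782 genes this gave an unadjusted p = 0.0188 and a Benjamini-Hochberg adjusted p = 0.730, so it did not pass the threshold of 0.05. Of all tested genes 6.32% had groups that did not overlap, 2.8% with GPC6 higher and 3.52% with GPC6 lower. A fitted log2 difference of this size or larger, with GPC6 higher, was found for 0.061% of them. An unadjusted limma p this small or smaller, in either direction, was found for 0.974%. Without both GPC6 replicates 1 and 2 the difference was 2.94 (limma adjusted p = 0.767), and without 3xCR replicate 4 it was 2.39 (limma adjusted p = 0.999).

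Grin2a and Grin2b, the GluN2 genes of the mature and the developing forebrain, had few reads in all 3xCR libraries. Grin2a was at 13.2, 6.51 and 6.91 normalized counts in the 3xCR libraries and at 233, 5.93, 59.4 and 23.7 in the GPC6 libraries, in order of replicate number. Grin2b was at 8.77, 7.44 and 0 in the 3xCR libraries and at 207, 7.90, 63.9 and 12.3 in the GPC6 libraries. For both genes GPC6 replicates 1, 3 and 4 were above all 3xCR libraries, whereas GPC6 replicate 2 was within the 3xCR range for Grin2b and just below it for Grin2a. The Grin2a means were 8.86 ± 3.73 (SD, n = 3) and 80.6 ± 104 (SD, n = 4), a log2 difference of 2.06 (SE 1.11, limma adjusted p = 0.730). The Grin2b means were 5.40 ± 4.73 (SD, n = 3) and 72.8 ± 93.1 (SD, n = 4), a log2 difference of 3.03 (SE 1.30, unadjusted p = 0.0491, limma adjusted p = 0.730). The fitted Grin2b difference depends on the added count of 1, because 3xCR replicate 4 held no Grin2b read. With added counts of 0.5 and 5 it was 3.38 and 2.16. Leaving out 1 library at a time moved the Grin2a difference between 1.21 (without GPC6 replicate 1) and 2.90 (without GPC6 replicate 2), and the Grin2b difference between 1.97 (without 3xCR replicate 4) and 3.70 (without GPC6 replicate 2). Without both GPC6 replicates 1 and 2 they were 2.03 and 2.76, and neither passed adjustment in any of these fits.

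Grin2c and Grin2d, the other two GluN2 genes, overlapped between the groups. Grin2c was at 243, 98.6 and 9.67 normalized counts in the 3xCR libraries and at 439, 37.5, 173 and 43.2 in the GPC6 libraries. Its spread within the 3xCR group alone covered all GPC6 libraries except replicate 1. The means were 117 ± 118 (SD, n = 3) and 173 ± 188 (SD, n = 4), a log2 difference of 0.74 (SE 1.22, limma adjusted p = 0.866), which was -0.55 without 3xCR replicate 4. Grin2d was at 35.6, 12.1 and 19.3 in the 3xCR libraries and at 138, 22.7, 41.7 and 9.26 in the GPC6 libraries. The lowest library of all belonged to the GPC6 group, and the log2 difference was 0.70 (SE 0.88, limma adjusted p = 0.823). Without both GPC6 replicates 1 and 2 that difference was -0.030.

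Over all 7 libraries the Grin3 subunits varied least. Within the 3xCR group the SDs of log2(normalized count + 1) were 1.36 for Grin3a and 1.05 for Grin3b. These were above those of Grin2a (0.51) and Grin2d (0.74) and below those of Grin1, Grin2b and Grin2c. Grin3a was at 1082, 482 and 164 normalized counts in the 3xCR libraries and at 549, 1061, 747 and 682 in the GPC6 libraries. The means were 576 ± 466 (SD, n = 3) and 760 ± 217 (SD, n = 4), a log2 difference of 0.74 (SE 0.58, limma adjusted p = 0.742). Leaving out 1 library moved it between 0.031 (3xCR replicate 4 left out) and 1.39 (3xCR replicate 2 left out). Its 2 highest libraries came from different groups, and the lowest was 3xCR replicate 4. Grin3b was at 21.9, 22.3 and 5.52 in the 3xCR libraries and at 17.0, 26.7, 19.5 and 25.7 in the GPC6 libraries. The log2 difference was 0.59 (SE 0.60, limma adjusted p = 0.785), and without 3xCR replicate 4 it was -0.017. Exons of Grin3b share 32.1% of their bases with Tmem259 on the opposite strand, a gene at 1000 to 1428 normalized counts. The library kit keeps strand, but the sources do not say whether counting used it, so Grin3b reads may in part belong to Tmem259.

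**Figure D1:**
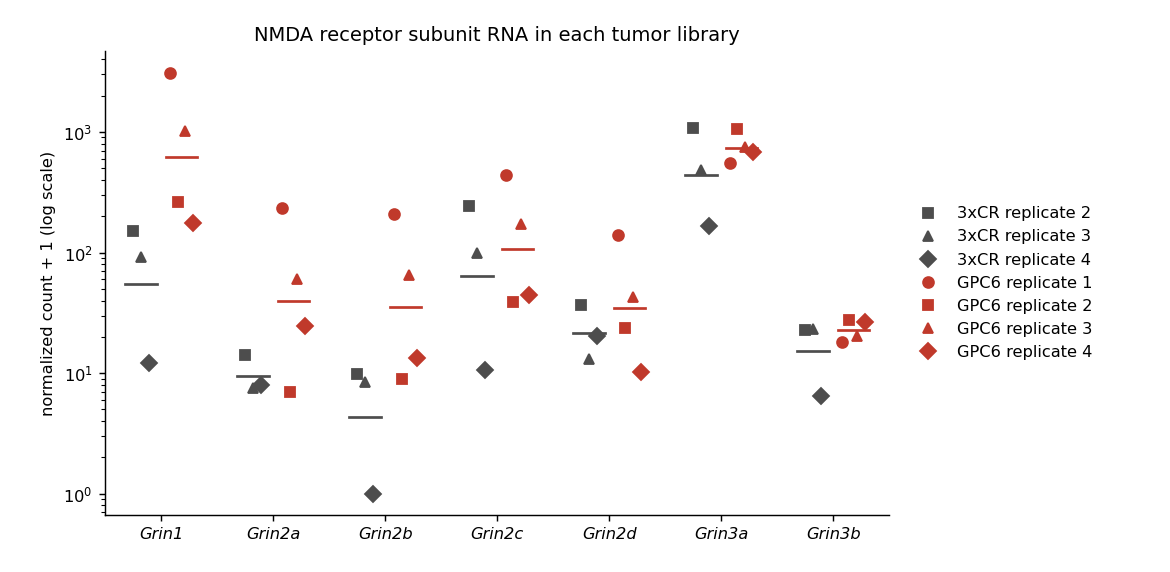
Normalized counts + 1 of the 7 NMDA receptor subunit genes on a log axis, 1 point per library, with 3xCR (n = 3) and GPC6 (n = 4) side by side and a bar at the mean of the log values. Grin1 is the only gene whose groups do not overlap, and over all 7 libraries Grin3a and Grin3b are the least spread.

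The mean log2 value of all 7 subunits was higher in GPC6 than in 3xCR tumors, which held for 48.3% of all tested genes. Of the 7, 2 (Grin1 and Grin2b) reached an unadjusted p under 0.05 in the limma fit, against 4.66% of all tested genes (2.74% higher and 1.92% lower in GPC6), and none did after adjustment. The adjusted threshold was passed by 0% of the 14782 genes, so it separates no gene here from the rest. The median log2 difference of the 7 was 0.74, and that of all tested genes was -0.019. On whole reads recovered from the table, the edgeR quasi-likelihood test called 0 subunits after adjustment and 3 without it (Grin1, Grin2a and Grin2b), against 6.7% of genes without adjustment. DESeq2 likewise called 0 and 3, against 0.0211% of all genes with adjustment and 9.77% without. The voom fit called 0 with or without adjustment, against 3.38% of genes without it. When limma gave each library a weight, 3 subunits passed the adjusted threshold. Grin1 differed by 3.30 with a limma adjusted p = 0.0290 and Grin2a by 2.67 with the same adjusted p, and Grin2b differed by 2.75 with a limma adjusted p = 0.0358. Under those weights 13.3% of all tested genes passed as well, and 34.5% had an unadjusted p under 0.05.

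The starts of the subunit genes are shown for Grin1, whose groups separated most, and for Grin2c, the GluN2 gene of highest mean level per kilobase of exon, which overlapped. RefSeq promoter windows (GRCm38.p6, 250 bases before to 50 after the start) were found for 4 of the 7 genes, these and Grin2d and Grin3b. The Grin2d window lies on the minus strand at chr7:45866632-45866931. The GENCODE annotation places the start of that gene at 45878378, outside the window, so its matches refer to the RefSeq start only. The Grin1 window lies on the minus strand at chr2:25319138-25319437 and the Grin2c window on the minus strand at chr11:115267194-115267493. Both are written 5′ to 3′ in the direction of the gene, with matches to the searched motifs in capitals.
Grin1: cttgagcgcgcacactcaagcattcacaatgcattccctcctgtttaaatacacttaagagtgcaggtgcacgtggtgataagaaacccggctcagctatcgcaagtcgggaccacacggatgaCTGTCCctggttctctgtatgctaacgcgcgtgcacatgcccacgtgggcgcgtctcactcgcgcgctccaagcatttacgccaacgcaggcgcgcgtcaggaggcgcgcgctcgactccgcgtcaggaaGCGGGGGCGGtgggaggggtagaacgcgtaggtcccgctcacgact
Grin2c: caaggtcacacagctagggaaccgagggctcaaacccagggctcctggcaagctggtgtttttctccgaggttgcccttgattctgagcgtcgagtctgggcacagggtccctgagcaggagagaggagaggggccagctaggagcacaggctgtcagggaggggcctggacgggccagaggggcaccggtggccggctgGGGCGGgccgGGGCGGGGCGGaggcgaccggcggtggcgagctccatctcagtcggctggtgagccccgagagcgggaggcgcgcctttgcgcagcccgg
The Grin1 window had 33 CpG dinucleotides and a GC content of 60.7%, and the Grin2c window had 22 CpG dinucleotides and 70.0%. The medians over 32851 RefSeq promoter windows were 7 CpG dinucleotides and 52.7%. On both strands, the GC box GGGCGG was found in 35.7% of all windows. Grin1 held it 9 bases after the start, where it overlaps the EGR motif GCGGGGGCG, and Grin2c held it 3 times before the start. The EGR motif was found in 2.91% of all windows and, of the 4 subunit windows, only in that of Grin1. The letters GGACAG, the right part of the RE1 element bound by the repressor REST, were found in 22.2% of all windows and in those of Grin1 (printed as its reverse complement), Grin2d and Grin3b. The left part, CAGCACC, was in 7.14% of all windows and in none of the 4. TATAAA was in 13.6% of windows, including that of Grin3b, and neither the CRE letters TGACGTCA (1.79%) nor the NRF1 core motif (4.6%) were in any of the 4. These are letter matches, and binding was not measured. Rest itself, the gene of the repressor, was at 102 ± 41.0 normalized counts (SD, n = 3) in 3xCR and 61.2 ± 11.5 (SD, n = 4) in GPC6 tumors, with overlapping groups.

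Levels of different subunits were compared as normalized counts per kilobase of exon in the GENCODE annotation. On that scale Grin3a led in 5 of the 7 libraries. It stood at 88.1, 39.3 and 13.4 per kilobase in the 3xCR libraries and at 44.7, 86.4, 60.8 and 55.6 in the GPC6 libraries. Grin1 stood at 15.5, 9.30 and 1.14 in the 3xCR libraries and at 321, 26.9, 106 and 17.9 in the GPC6 libraries, so it led only in GPC6 replicates 1 and 3. In 3xCR tumors the order by mean was Grin3a (46.9 ± 38.0), Grin2c (23.3 ± 23.4), Grin1 (8.66 ± 7.22), Grin3b (5.03 ± 2.91), Grin2d (3.36 ± 1.81), Grin2a (0.494 ± 0.208) and Grin2b (0.218 ± 0.190), all SD with n = 3. From Grin3a down to Grin2d, neighbours in that order differed by less than the larger of their SDs. The ranges of Grin2d (1.82 to 5.35), Grin2a (0.363 to 0.734) and Grin2b (0 to 0.353) did not touch each other by exon length. Per kilobase of the longest coding sequence, those of Grin2a (1.48 to 3.00) and Grin2b (0 to 1.97) overlapped. In GPC6 tumors the order by mean was Grin1 (118 ± 141), Grin3a (61.9 ± 17.7), Grin2c (34.4 ± 37.3), Grin2d (7.93 ± 8.72), Grin3b (6.74 ± 1.43), Grin2a (4.49 ± 5.81) and Grin2b (2.93 ± 3.75), all SD with n = 4. There the SDs of Grin1, Grin2c, Grin2d, Grin2a and Grin2b exceeded their means, and neighbours in this order did not differ beyond their spread. The longest coding sequence as the length in place of exons kept Grin3a first in the same 5 libraries and Grin1 first in the other two.

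As a share of all subunit signal per kilobase, Grin1 made up 9.41%, 12.02% and 5.32% in the 3xCR libraries and 64.2%, 20.2%, 48.3% and 19.3% in the GPC6 libraries. The 2 sets did not overlap. Grin3a made up 53.4%, 50.7% and 62.5% in the 3xCR libraries and 8.95%, 65.0%, 27.8% and 59.7% in the GPC6 libraries, so GPC6 replicates 2 and 4 lay at the 3xCR level and replicates 1 and 3 below it. Grin2a never exceeded 2.60% and Grin2b never exceeded 1.67%, and by coding length these limits were 3.54% and 3.11%. Among the GluN2 genes alone, Grin2c made up 88.2%, 88.8% and 36.9% of the signal per kilobase in the 3xCR libraries, and 67.5%, 64.7%, 73.9% and 72.8% in the GPC6 libraries. By coding length its share in the GPC6 libraries was lower, at 46.8% to 54.8%. In 3xCR replicate 4, the low share of Grin2c rested on 7 reads, and Grin2d, with 14 reads, made up 55.8%.

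**Figure D2:**
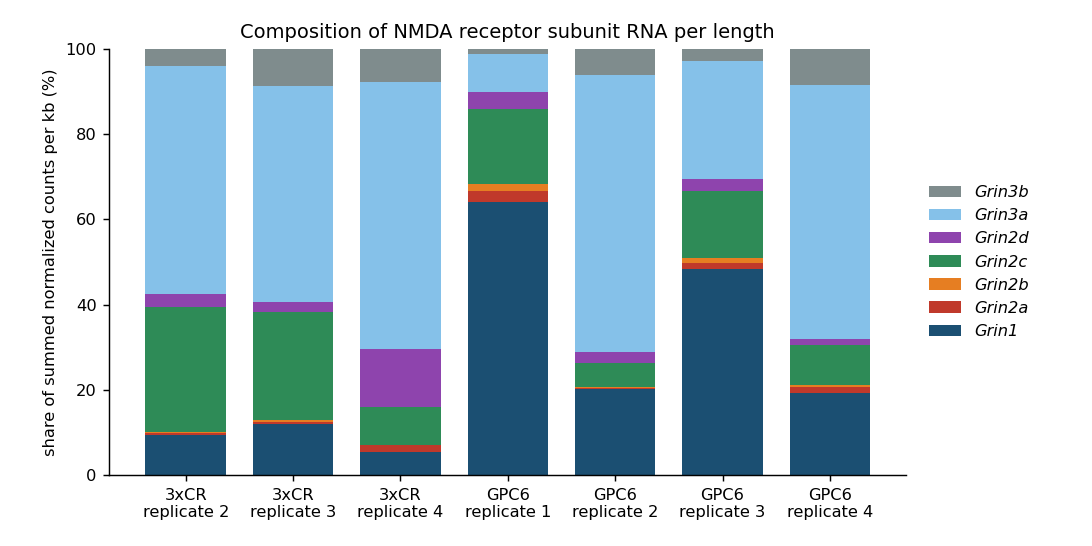
Share of each of the 7 subunits in the summed normalized counts per kilobase of exon, in percent, 1 bar per library and 1 colour per subunit. Grin3a takes 50.7% or more in 5 libraries, and Grin1 takes the largest share in GPC6 replicates 1 (64.2%) and 3 (48.3%).

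The ratio of Grin2a to Grin2b, which is known to rise as forebrain circuits mature, did not separate the groups. Its log2 value was 0.53, -0.17 and 2.98 in the 3xCR libraries 2, 3 and 4, against 0.17, -0.36, -0.10 and 0.89 for GPC6 replicates 1 to 4. The highest value, in 3xCR replicate 4, came from 5 Grin2a reads and no Grin2b read. The means were 1.12 ± 1.65 (SD, n = 3) and 0.15 ± 0.54 (SD, n = 4), a difference of -0.97 (two-sided exact permutation test, p = 0.457). With 3 against 4 libraries the smallest two-sided p is 0.057, so no ratio could pass 0.05. Without 3xCR replicate 4 the difference was -0.035. Counted as reads, Grin2a made up 60.0% of the reads of the pair in 3xCR replicate 2 (95% Clopper-Pearson interval 43.3% to 75.1%), 46.7% in replicate 3 (21.3% to 73.4%) and 100% of 5 reads in replicate 4 (47.8% to 100%). In GPC6 replicates 1 to 4 the share was 53.0% (47.0% to 58.9%), 42.9% (17.7% to 71.1%), 48.2% (39.7% to 56.8%) and 65.7% (47.8% to 80.9%). Intervals cover counting error only. All 7 intervals included 50% of reads, and in GPC6 replicate 1, the library with most reads of the pair, the interval was the narrowest. A share of 50% does not mark equal transcript levels, because these reads were not corrected for length. The exons span 17.9 kb for Grin2a and 24.8 kb for Grin2b.

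The proportion of Grin1 to the GluN2 genes as a set separated the groups without overlap. The log2 ratio of Grin1 to the sum of Grin2a, Grin2b, Grin2c and Grin2d was -0.99, -0.46 and -1.62 in the 3xCR libraries and 1.61, 1.80, 1.60 and 0.97 in the GPC6 libraries. Below 0 in all 3 libraries of one group and above 0 in all 4 of the other, it differed by 2.52 between means of -1.02 ± 0.58 (SD, n = 3) and 1.49 ± 0.36 (SD, n = 4). The exact two-sided permutation test gave p = 0.057, the smallest it can give, and 0.095 after Benjamini-Hochberg adjustment over 5 ratios. As a share of the reads on Grin1 and the 4 GluN2 genes, Grin1 held 33.4% (95% Clopper-Pearson interval 30.2% to 36.7%), 42.0% (35.5% to 48.6%) and 23.5% (10.7% to 41.2%) in the 3xCR libraries. In the GPC6 libraries it held 75.4% (73.7% to 77.0%), 77.9% (73.1% to 82.2%), 75.2% (73.0% to 77.4%) and 66.3% (60.1% to 72.1%). No interval of one group touched one of the other. The read shares do not depend on the size factors, and without both GPC6 replicates 1 and 2 the difference was 2.31.

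The same separation was looked for in all other tested genes set over the same GluN2 sum. It was found, with GPC6 higher, for 1.24% of 14778 genes. Among markers of neurons in general it was found for 7 of 15 (Snap25, Syt1, Syn1 and Syp among them), and among 10 astrocyte and 10 oligodendrocyte precursor markers for 0 of each list. The GluN2 sum consisted mostly of Grin2c reads in 3xCR replicates 2 and 3, and the ratio thus set Grin1 largely against Grin2c there.

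The 3 other ratios were lower in GPC6 tumors on average. The log2 ratio of Grin2c to Grin2b was 4.64, 3.56 and 3.42 in the 3xCR libraries and 1.08, 2.11, 1.42 and 1.73 in the GPC6 libraries. The groups did not overlap (exact two-sided permutation test, p = 0.057, adjusted 0.095), but 21% of all tested genes set over Grin2b separated in this direction too. The value for 3xCR replicate 4 rested on 7 reads of Grin2c and none of Grin2b. The log2 ratio of Grin3a to Grin1 was 2.84, 2.40 and 3.78 in the 3xCR libraries and -2.50, 2.02, -0.46 and 1.97 in the GPC6 libraries. It did not overlap either (exact two-sided permutation test, p = 0.057, adjusted 0.095), as was true of 56.7% of tested genes set over Grin1. On the linear scale Grin3a had 5.34 to 14.9 normalized counts for each of Grin1 in 3xCR tumors and 0.176 to 4.07 in GPC6 tumors, with no length correction. The ratio of Grin2d to Grin2b overlapped (difference of log2 values -2.33, exact two-sided permutation test, p = 0.114, adjusted 0.143).

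**Figure D3:**
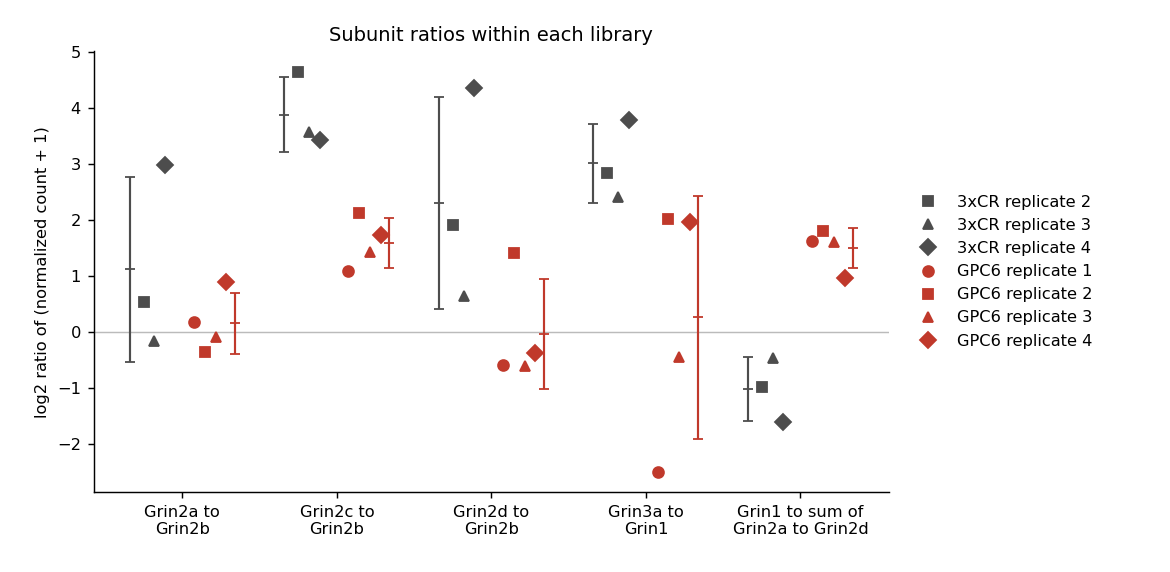
Log2 ratios between subunits, each normalized count + 1, with 1 point per library, bars for the mean ± SD of each group beside the points, for 3xCR (n = 3) and GPC6 (n = 4). The ratio of Grin1 to the GluN2 sum lies between -1.62 and -0.46 in 3xCR and between 0.97 and 1.80 in GPC6, whereas the ratio of Grin2a to Grin2b overlaps.

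Neuronal RNA differed between these bulk samples, and fewer neurons and less RNA per neuron cannot be told apart in them. The mean centred log2 level of 15 pan-neuronal markers, called the neuronal score here, was -0.21, -0.85 and -1.89 in the 3xCR libraries 2, 3 and 4, against 2.47, -1.11, 1.57 and 0.02 for GPC6 replicates 1 to 4. The groups overlapped through GPC6 replicate 2. The summed level of the markers ranged from 6269 to 14268 normalized counts in 3xCR tumors and from 9708 to 95849 in GPC6 tumors, all 15 were higher on average in GPC6 tumors, and none was at 0 in any library. In 3xCR replicate 4 the cortical excitatory markers Neurod6, Tbr1, Fezf2 and Emx1 and the interneuron markers Vip and Dlx1 had no read. In GPC6 replicate 1 the score of hypothalamic neuron markers was 3.41, while it was at most 0.55 in the other 6 libraries, and the score of proliferation markers was -3.02, the lowest of all. The region sampled and the share of tumor in each piece are not given in the sources, and their part in the subunit values was not tested.

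Set against the neuronal score, the subunits differed in how far they followed it. Grin1, Grin2a and Grin2b ranged over 8.01, 5.08 and 7.70 log2 units across the 7 libraries, with GPC6 replicate 1 highest in each. After subtraction of the neuronal score, Grin2a ranged over 1.65, Grin1 over 3.66 and Grin2b over 3.34. The wider ranges of Grin1 and Grin2b rested mostly on 3xCR replicate 4, at -2.29 and -1.96, with 8 and 0 reads. In the other libraries Grin1 did not fall below -0.42, nor Grin2b below -0.36. Of 14 marker lists, these 3 genes differed least from the inhibitory neuron list, with mean absolute differences of centred log2 values of 0.45 for Grin2a, 0.57 for Grin2b and 0.80 for Grin1. The pan-neuronal list stood at 0.47, 0.70 and 0.97 for them, nearly level for Grin2a. Grin3a and Grin3b ranged over 2.71 and 2.09 and differed least from the oligodendrocyte precursor list, by 0.56 and 0.55. The astrocyte list was next, at 0.65 and 0.60. The oligodendrocyte precursor score was 0.72, 0.22 and -0.95 in the 3xCR libraries and -1.03, 1.38, -0.17 and -0.16 in the GPC6 libraries, with GPC6 replicate 2 highest, as for Grin3a among the GPC6 libraries. Grin2c differed least from the cortical excitatory list, by 0.74, with the pan-neuronal list next at 0.80 and the astrocyte list at 0.82. Grin2d differed least from the hypothalamic list, by 0.53, with the thalamic list next at 0.63. The hypothalamic list was near the floor, with 5 of its 8 genes tested. Its summed level was 31.6 to 132 normalized counts outside GPC6 replicate 1, where it was 1335. These are descriptions over 7 libraries.

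Grin1 minus the neuronal score was -0.32, -0.42 and -2.29 in the 3xCR libraries and 1.36, 1.36, 0.66 and -0.35 in the GPC6 libraries, with an overlap at GPC6 replicate 4. With the neuronal score as a covariate in limma, the difference for Grin1 was 1.31 (adjusted p = 0.9997), for Grin2a 0.026, for Grin2b 0.60, for Grin2c -1.48, for Grin2d -0.55, for Grin3a 0.61 and for Grin3b 0.54. None passed in that fit at an adjusted or an unadjusted 0.05, against 2.11% of all tested genes without adjustment.

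**Figure D4:**
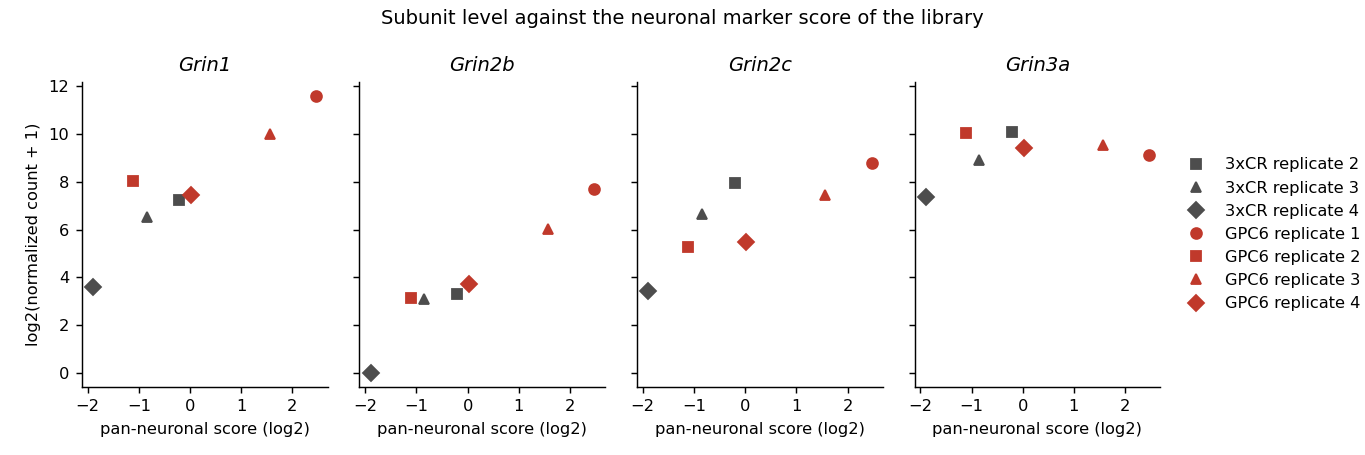
The log2(normalized count + 1) of Grin1, Grin2b, Grin2c and Grin3a in 1 panel each against the neuronal score, the mean centred log2 level of 15 pan-neuronal markers, 1 point per library for 3xCR (n = 3) and GPC6 (n = 4). GPC6 replicate 1 has the highest score (2.47) and the highest Grin1, Grin2b and Grin2c, while its Grin3a lies below that of 4 other libraries.

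The genes closest in pattern were looked for by the mean absolute difference of centred log2 values over the 7 libraries. They are given for Grin1, Grin2a, Grin2b, Grin2c and Grin2d. Nearest to Grin1 were Gabrd, a GABA-A receptor subunit gene, at 0.287, then Grin2b at 0.301 and Kcnj4, an inward rectifier potassium channel gene, at 0.327. Nearest to Grin2a were Vamp1, a synaptic vesicle SNARE gene, at 0.171, Cacna1i, a T-type calcium channel gene, at 0.198 and Cacng2, encoding the AMPA receptor partner stargazin, at 0.225. Nearest to Grin2b were Atp2b2, a plasma membrane calcium pump gene, at 0.225, Vstm2l at 0.272 and Grin1 at 0.301. The closest to Grin2c were Cldn10 at 0.373, Fn3k at 0.379 and Slc39a12 at 0.397. Nearest to Grin2d were Cacnb3, a voltage-gated calcium channel subunit gene, at 0.191, Ppp1r3f at 0.202 and Eml2 at 0.219. Grin1 and Grin2b were among each other's 3 nearest genes of 14782. The Grin2b pattern rested on 16, 8 and 0 reads in the 3xCR libraries and on 8 and 12 in GPC6 replicates 2 and 4. Its value in 3xCR replicate 4 was therefore set by the added count of 1.

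Genes that act with the receptor were counted by role from a list of 74, of which 72 were tested. In the limma fit 7 had an unadjusted p under 0.05, all with GPC6 higher, against 2.74% of all tested genes in that direction, and none passed after adjustment (limma, smallest adjusted p = 0.730). The median log2 difference of the 72 was 0.71, and 53 were higher on average in GPC6 tumors, against 48.3% of all tested genes. The count without adjustment depended on the fit, with 15 by edgeR (6.7% of all genes), 29 by DESeq2 (9.77%) and 2 by voom (3.38%). With no variance trend it was 3, against 650 genes across the table. It was 0 with the neuronal marker score as a covariate (2.11% of all genes) and without 3xCR replicate 4 (121 genes).

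Of 14 scaffold genes, 1 was among the 7, and the median log2 difference was 1.12. Dlg4, encoding the postsynaptic scaffold PSD-95, had the highest normalized count of the role (with no length correction, as for the other roles), with 1402, 725 and 664 normalized counts in the 3xCR libraries and 5637, 1047, 3146 and 841 in the GPC6 libraries. Homer1, a scaffold linking metabotropic glutamate receptors to the postsynaptic density, was at 280, 226 and 160 in the 3xCR libraries and at 824, 290, 562 and 312 in the GPC6 libraries. Its log2 difference was 1.06 (SE 0.41, limma adjusted p = 0.730). Its groups did not overlap, with GPC6 higher, as for 2.8% of all tested genes. Of 12 trafficking and surface partners none was among the 7, and the median was 0.58. Gipc1, a PDZ adaptor gene with the highest count of the role, averaged 1702 ± 337 (SD, n = 3) and 1409 ± 912 (SD, n = 4). Lin7a, of a complex that carries GluN2B vesicles, averaged 71.2 ± 45.1 (SD, n = 3) and 227 ± 181 (SD, n = 4).

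Of 12 kinases and phosphatases acting on the receptor, 3 were among the 7, and the median was 0.96. Cdk5r1, encoding the neuronal activator of Cdk5, was at 393, 160 and 117 normalized counts in the 3xCR libraries and at 1887, 300.3, 1104 and 418 in the GPC6 libraries (log2 difference 1.87, SE 0.70, limma adjusted p = 0.730). The Cdk5 kinase gene itself and Ppp3cb, a calcineurin catalytic subunit gene, were the others, and both had groups that did not overlap. With Homer1 they were the 3 of the 72 tested genes without overlap, all with GPC6 higher. Groups without overlap in that direction were found for 2.8% of all tested genes, and in either direction for 6.32%. Cdk5 averaged 712 ± 92.4 (SD, n = 3) and 996 ± 165 (SD, n = 4), and Ppp3cb averaged 692 ± 155 and 1401 ± 676. Fyn, a Src-family kinase gene with the highest count of the role, averaged 5619 ± 4143 (SD, n = 3) and 5237 ± 4256 (SD, n = 4).

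Of 13 downstream signalling genes, 3 were among the 7, and the median was 1.34, the highest of the 6 roles. Rasgrf2, a Ras exchange factor gene, averaged 94.0 ± 47.4 (SD, n = 3) and 440 ± 437 (SD, n = 4) normalized counts, and the others were Camk2b and Crtc1, a CREB coactivator gene. Camk2b, encoding the beta subunit of CaM kinase II, averaged 1024 ± 723 (SD, n = 3) and 4045 ± 3624 (SD, n = 4). Camk2a, the alpha subunit gene, had the largest log2 difference of the list, 3.04 (SE 1.55, limma adjusted p = 0.730), and ran from 56.6 to 1912 in 3xCR and from 474 to 24075 in GPC6 tumors.

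Of 16 genes of co-agonist and endogenous ligand metabolism 14 were tested, none was among the 7, and the median was 0.034. Psat1, an enzyme of serine synthesis, averaged 4563 ± 750 (SD, n = 3) and 3294 ± 946 (SD, n = 4), and Gldc, of the glycine cleavage system, 354 ± 196 and 625 ± 242. Of 7 genes for transcription factors tied to subunit promoters none was among the 7, and the median was -0.12. Mef2c, a neuronal activity-regulated factor gene, averaged 338 ± 56.4 (SD, n = 3) and 1101 ± 947 (SD, n = 4), with GPC6 replicate 1 at 2400 and replicate 2 at 239. The roles thus ranged from medians near that of all genes, for ligand metabolism and transcription, to medians above 1 for scaffolds and downstream signalling.

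**Figure D5:**
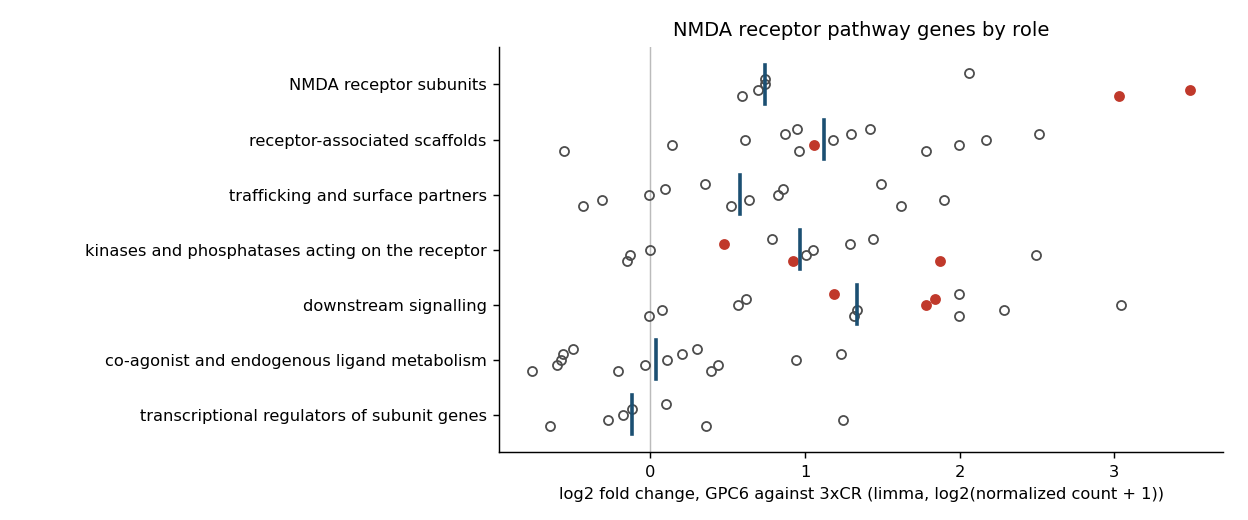
Log2 difference (GPC6 minus 3xCR) of the 7 subunits and of the tested genes of each role, 1 point per gene, with a vertical line at each median and filled red points for an unadjusted p under 0.05. The medians of the 6 roles lie between -0.12 for transcriptional regulators and 1.34 for downstream signalling.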

How the data were processed

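Total RNA of 7 endpoint tumor samples, 3 of 3xCR and 4 of GPC6, had been made into stranded mRNA libraries. Per the methods and the submitters' processing notes, the authors aligned reads to mm10 with STAR 2.5.0a, counted them per gene and normalized them with DESeq2 1.20.0. The deposited values are a normalized signal, the read counts of each library over its size factor, with no length correction. Of 19282 entries, 25 had date-like names (0.254% to 0.361% of reads) and were dropped. Dividing by the value of 1 read gave whole reads, within 0.01, for 100% of the values. Libraries held 7197692 to 18879762 reads on genes, which bounds the precision of Grin2a, Grin2b and Grin3b, and of Grin1 and Grin2c in 3xCR replicate 4.

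Groups and replicate numbers came from the sample titles. The test was limma 3.58.1 (R 4.3.3) with a variance trend on log2(normalized count + 1), for genes with a mean of at least 10, two-sided, with Benjamini-Hochberg adjustment. Ratios were tested by exact permutation of the 35 splits of libraries (scipy 1.17.1). edgeR 4.0.16, DESeq2 1.42.0, voom, library weights, other scalings, filters and pseudocounts, a neuronal covariate and leaving out libraries were alternatives; the alternative without both GPC6 libraries 1 and 2 and the use of coding length were chosen after seeing the data. The fit was tested on simulated data. Named genes were all subunits, the gene of highest mean and of smallest p in each pathway role, and the 3 nearest genes in pattern to Grin1, Grin2a, Grin2b and Grin2d. Beyond this rule, Cdk5, Ppp3cb, Camk2b, Crtc1, Camk2a, Rest and the genes nearest to Grin2c were named after their values were seen. Members and lists were chosen with earlier results of these data known. No source says that the libraries shared a litter, day or batch, and p-values measure the spread between these samples. Symbols were matched to GENCODE (GRCm38), 96.0% of genes. Some loci are not reported here.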

Additional observations from a re-analysis of the deposited data

Results flagged for a closer look

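The log2 ratio of Grin2d to Grin2b in GPC6 replicate 2 was 1.41, far from the other 3 GPC6 libraries at -0.59, -0.60 and -0.38. Its gap to the nearest of them took up 0.889 of the range of the group, above the Dixon limit at 95% for 4 samples. It rested on 23 reads of Grin2d and 8 of Grin2b. A ratio this high was also present in 3xCR replicates 2 and 4, at 1.91 and 4.35. In all, 12 quantities were examined in this way, and chance passes the limit in about 1 group of 20.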

How the results depend on the processing

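The direction of all 5 subunit ratios held under every alternative run for them. The Grin1 difference was positive under all 22 alternatives (1.31 to 4.22) and passed adjustment only with library weights, and so was that of Grin2a (0.026 to 3.16) and of Grin2b (0.60 to 3.70), in the fits that kept them. The direction turned for Grin2c with the neuronal covariate (-1.48) and without 3xCR replicate 4 (-0.55, with 1 library left out -0.55 to 1.71), for Grin2d with the covariate (-0.55) and without both GPC6 replicates 1 and 2 (-0.030), and for Grin3b with library weights (-0.038) and without 3xCR replicate 4 (-0.017, with 1 library left out -0.017 to 0.90). The cause was not tested.

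The count of subunits at an unadjusted p under 0.05, 2 in the report, was 1 with a pseudocount of 5, a filter at a mean of 50 (fewer genes tested), the upper quartile, no variance trend, a robust trend, the replicate block and without both GPC6 replicates 1 and 2 (there Grin2a, which was not one of the 2), 0 with voom and with the covariate, and 4 with weights, of which 3 passed adjustment. Leaving out 1 library gave 0 to 3 subunits (0 without 3xCR replicate 4) and none after adjustment. The 7 pathway genes became 3 with no variance trend, 45 with weights, 15 by edgeR, 29 by DESeq2, 2 by voom, 0 with the covariate, and 0 to 22 when 1 library was left out. Across the table, 689 genes at an unadjusted p under 0.05 became 650 with no variance trend, 5105 with weights and 991 by edgeR. They became 1853 by DESeq2, 499 by voom and 312 with the covariate. When 1 library was left out they were 121 (without 3xCR replicate 4) to 1399 (without GPC6 replicate 2). After adjustment 0 became 1962 with weights and 4 by DESeq2.

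The replicate numbers showed no sign of pairing the samples. Deviations of libraries with the same number correlated at -0.19, 0.12 and 0.30, within the -0.46 to 0.50 of those with different numbers. A shared litter or batch cannot be told from these values. With a replicate block over numbers 2 to 4, 678 genes, 1 subunit (Grin1, 2.71) and 4 pathway genes had an unadjusted p under 0.05 and none passed adjustment, and the ratio of Grin1 to the GluN2 sum differed by 2.48. Depth limits Grin2a, Grin2b and Grin3b, with 5, 0 and 4 reads in 3xCR replicate 4. Grin1 and Grin2c are limited in that library too, with 8 and 7 reads.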
